A study of Homo sapiens with 2 samples.

Results

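The genes described here are the 37 genes of the mitochondrial chromosome: 13 mRNA, 2 rRNA and 22 tRNA genes. They were taken from GENCODE release 44 (hg38) by chromosome and matched by Ensembl identifier to the 58735 genes of 2 count tables. All 37 were in both tables, and all 37 had counts in both. The tables come from 1 Nanopore direct RNA library (403235 counts) and 1 Illumina library (191741714 counts) of polyadenylated RNA, described as matched. Both were made from MCF10a-Snail-ER cells, a line of mammary epithelial cells that stably carries the repressor Snail fused to the estrogen receptor. Tamoxifen had been added at 100 nM for 1 day before harvest to set off an epithelial-to-mesenchymal transition, and no untreated library was analysed here. Direct RNA sequencing reads native RNA strands through a pore, starting from the poly(A) tail. The Illumina library was prepared with a stranded mRNA kit, in which RNA is fragmented and copied into cDNA.

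With 1 library per platform there is no replicate, so no test was made. Intervals are 95% intervals that cover counting error only (copies of a molecule made by PCR are not independent), and every comparison is between these 2 libraries. A single count stood for 2.48 CPM (counts per 1000000 counts of the library) by Nanopore and 0.00522 CPM by Illumina. All 10 markers of basal mammary epithelium had counts in both libraries (KRT5, TP63 and others), with a sum of 9853 CPM by Nanopore and 11206 by Illumina. The endothelial markers PECAM1, VWF and CDH5 were at 0 by Nanopore and summed to 5.16 CPM by Illumina. Of the luminal markers, GATA3 was at 9.92 and 12.9 CPM by Nanopore and Illumina, FOXA1 had counts by Illumina only (4.97 CPM), and PGR was at 0 in both. Of the fibroblast markers, DCN was at 24.8 and 26.5 CPM, while COL1A1 and COL3A1 had no Nanopore count and at most 4.93 CPM by Illumina.

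Mitochondrial DNA is a small circle that is transcribed from both strands into long precursors. The tRNAs lie between most of the mRNAs and rRNAs, and their excision releases the other RNAs, an arrangement known as tRNA punctuation. The mRNAs encode subunits of respiratory complexes I, III and IV and of the ATP synthase, and most receive a short poly(A) tail after cleavage. In the annotation, 28 genes lie on the plus strand (both rRNAs, 12 mRNAs and 14 tRNAs). These are the genes of the heavy strand. The other 9 are MT-ND6 and 8 tRNAs, the genes of the light strand. How the authors' counting treated strand, and reads that touch several genes, is not given in the sources used here. Reads from a gene and from RNA antisense to it therefore cannot be told apart in these values.

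The borders between genes are shown first, because the tRNA genes are described below by their neighbours. Each line gives the last 20 bases of an mRNA or rRNA gene in lower case and the 10 bases that follow it in capitals, on the plus strand of hg38. In each of these 8 cases the first capital is the first annotated base of a tRNA gene.
MT-RNR2, chrM:3210-3239: cccacccaagaacagggtttGTTAAGATGG
MT-ND1, chrM:4243-4272: agcattccccctcaaacctaAGAAATATGT
MT-ND2, chrM:5492-5521: ttttatactaataatcttatAGAAATTTAG
MT-CO1, chrM:7426-7455: ccgtatacataaaatctagaCAAAAAAGGA
MT-CO3, chrM:9971-10000: catctattgatgagggtcttACTCTTTTAG
MT-ND3, chrM:10385-10414: aggattagactgaaccgaatTGGTATATAG
MT-ND4, chrM:12118-12147: cattaccgggttttcctcttGTAAATATAG
MT-CYB, chrM:15868-15897: caaaatactcaaatgggcctGTCCTTGTAG
No base separates gene and tRNA at any of these borders. The genes MT-ND2, MT-CO3, MT-ND3, MT-ND4 and MT-CYB end with a lone T after their last full codon and MT-ND1 with TA, so their stop codons are completed by the poly(A) tail. MT-CO1 ends in a complete AGA, and the tRNA that follows it, MT-TS1, is encoded on the other strand. The capitals after MT-CO1 are therefore the reverse complement of the end of that tRNA.

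In 2 places reading frames share more than 1 base, and these mRNAs are known to be kept together on 1 RNA. MT-ATP6 and MT-CO3 also share 1 base, with no tRNA gene between them, and that border is not printed. The lines show the shared bases in capitals with 10 bases on either side.
MT-ATP8/MT-ATP6, chrM:8517-8582: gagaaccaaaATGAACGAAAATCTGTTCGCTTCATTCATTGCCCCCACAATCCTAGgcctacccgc
MT-ND4L/MT-ND4, chrM:10750-10776: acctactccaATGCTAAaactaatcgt
The shared stretch is 46 bases for the ATP synthase pair and 7 bases for the complex I pair.

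As a share of all counts, the tRNA genes stood far higher by Nanopore than by Illumina, and the mRNA and rRNA genes were close. The 13 mRNA genes held 26320 Nanopore counts, 6.53% of the library (6.45 to 6.60%), and 10006367 Illumina counts, 5.22%. The 2 rRNA genes held 2757 counts, 0.684% (0.659 to 0.710%), by Nanopore and 862762 counts, 0.450%, by Illumina. The 22 tRNA genes held 11719 counts, 2.91% (2.85 to 2.96%), by Nanopore and 133425 counts, 0.0696%, by Illumina. The log2 ratio of these shares was 0.32 for mRNA, 0.60 for rRNA and 5.38 for tRNA genes. With Illumina counts divided by gene length it was −1.44 for mRNA, −0.33 for rRNA and 0.060 for tRNA genes. On that scale the order of the classes held and the excess of the tRNA class over Illumina did not. The division used the whole exonic length, with no allowance for fragment size, which limits it for genes as short as the tRNA genes. Within the mitochondrial counts, tRNA genes made up 28.7% by Nanopore and 1.21% by Illumina.

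MT-TS1, the gene of tRNA-Ser(UCN), alone held 32.9% of the Nanopore tRNA counts (32.1 to 33.8%) and 1.14% of the Illumina ones. Without it, a split chosen after the values were seen, the log2 ratio of tRNA shares was 4.82.

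The ratio of each gene was taken as log2 of (Nanopore CPM + 1) over (Illumina CPM + 1), and a gene was counted as past the threshold at 4-fold. Of the 37 genes, 20 were past it with the higher value by Nanopore, all of them tRNA genes, and 0 with the higher value by Illumina. Of the 12414 genes that reached 5 CPM on average over both libraries, 12.9% were 4-fold higher by Nanopore and 8.14% were 4-fold higher by Illumina. The median ratio of the tRNA genes was 4.76, that of the mRNA genes 0.35, and that of all 12414 genes −0.42. All 37 members reached that level.

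Nuclear genes of at most 100 exonic bases are the closest in length to the tRNA genes of 59 to 75 bases. Of 444 such nuclear genes with a count in either library, 20.0% were 4-fold higher by Nanopore and 0.225% by Illumina. Most of the 444 averaged less than 5 CPM, and their median log2 ratio was −0.015. With the pseudocount of 1 CPM, a gene with a single Nanopore count and no Illumina count stays within 4-fold. These shares therefore depend on depth. Of the 47 that averaged at least 5 CPM, 97.9% were 4-fold higher by Nanopore and 0.0% by Illumina, with a median log2 ratio of 5.40. Those 47 passed the minimum largely through Nanopore: 25 of them had no Illumina count. The bodies of 46 of them overlap another gene. A share among genes that passed in this way was nearly fixed by the minimum. The tRNA genes' 20 of 22 is therefore read against neither the 444 nor the 47.

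**Figure D1:**
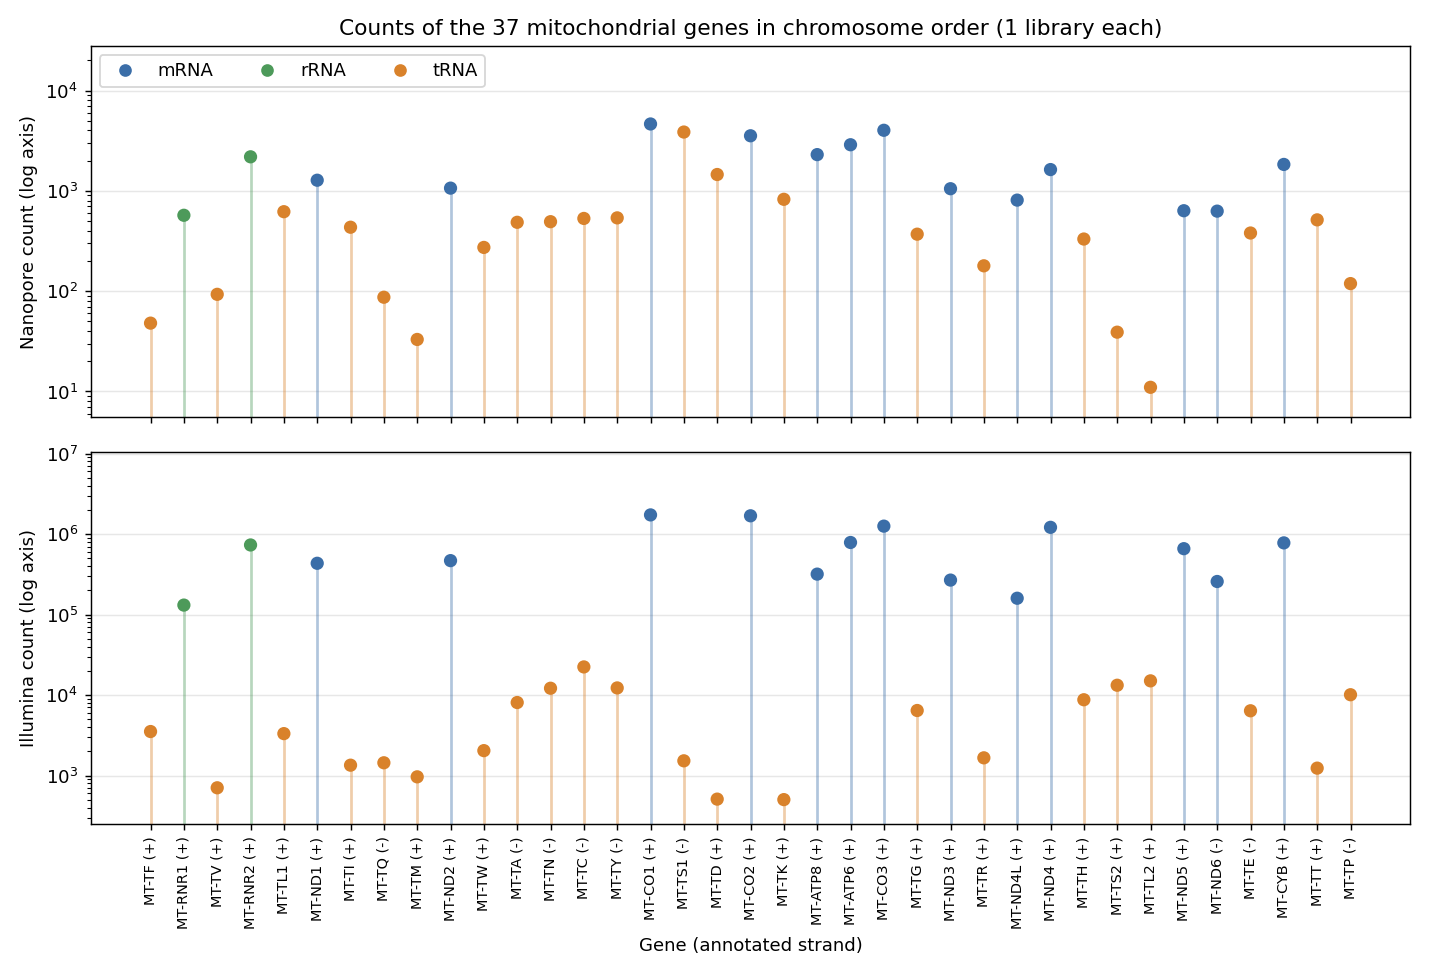
Counts of the 37 genes in chromosome order, Nanopore above and Illumina below, on log axes, with mRNA genes in blue, rRNA genes in green and tRNA genes in orange and the annotated strand in brackets. By Nanopore the tRNA genes span 11 to 3860 counts and run into the range of the mRNA genes (628 to 4645), while by Illumina the highest tRNA gene (22346) lies below the lowest mRNA gene (159424).

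Length enters this comparison, since a Nanopore read can count once for a whole RNA while an Illumina count comes from a fragment. Dividing the Illumina counts by gene length, with rescaling to the library, lowered every ratio of the 37 genes, which are 59 to 1812 bases long. Apart from the pseudocount, the size and direction of this shift are set by gene length alone. On that scale the 13 mRNA genes lay between −2.15 and −0.46 and the 2 rRNA genes between −0.45 and −0.29, all higher by Illumina. The median of the tRNA genes became −0.46, with 9 above 0 and 13 below. Only MT-TD (5.08), MT-TS1 (4.94), MT-TK (4.32) and MT-TT (2.27) were still 4-fold higher by Nanopore on this scale. Another 6 members were 4-fold higher by Illumina: MT-TL2 (−6.72), MT-TS2 (−5.02), MT-TP (−2.82), MT-TF (−2.55), MT-ND6 (−2.15) and MT-ND3 (−2.07). Of the 12350 genes with a known length that reached the same minimum, 15.2% were 4-fold higher by Nanopore and 4.27% by Illumina on this scale, with a median of 0.42. The sign of the ratio changed with this division for 24 of the 37 genes: 10 mRNA genes, both rRNA genes and 12 tRNA genes.

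**Figure D2:**
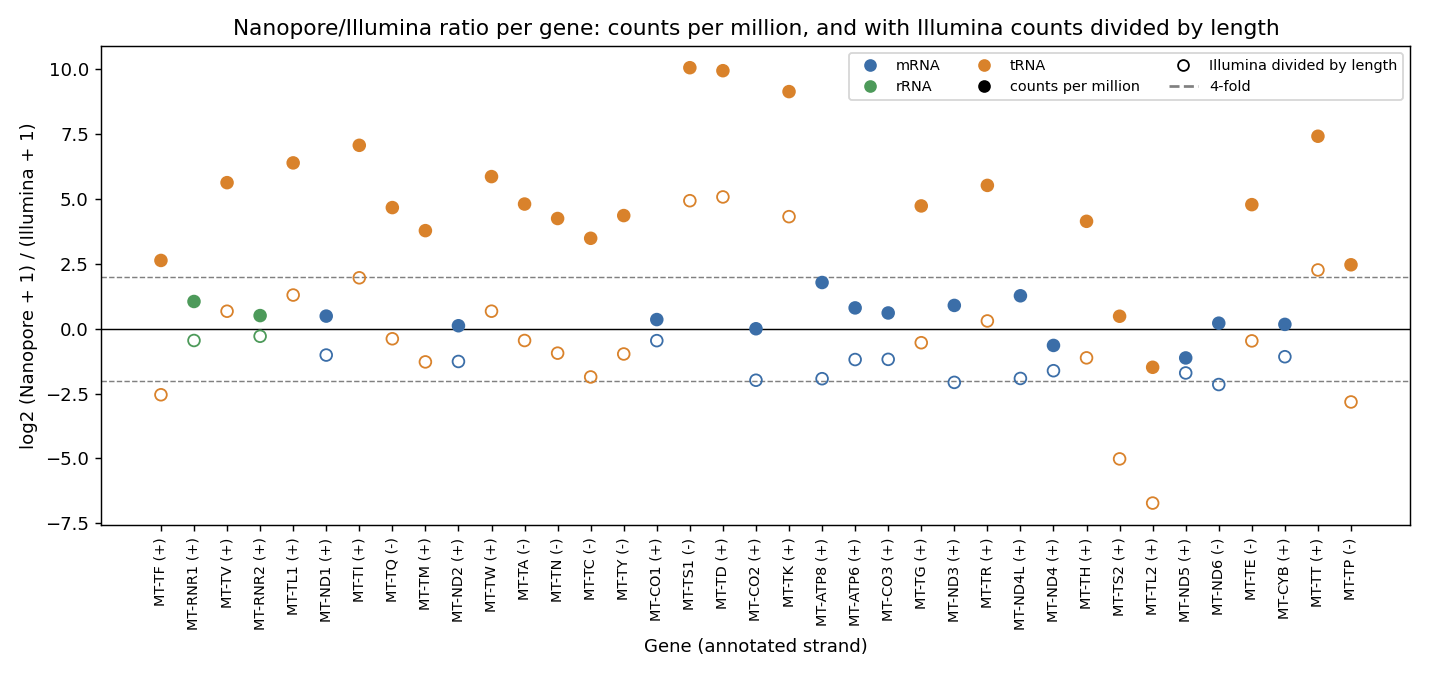
The log2 Nanopore/Illumina ratio of each gene in chromosome order, filled points from CPM and open points after dividing Illumina counts by the length of the gene. Dashed lines mark 4-fold. MT-TS1, MT-TD, MT-TK and MT-TT lie above the upper line on both scales, and every mRNA gene lies below 0 once length is divided out.

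Complex IV, or cytochrome c oxidase, passes electrons to oxygen, and its 3 mitochondrial subunits were the most abundant mRNAs by Nanopore. MT-CO1 (ENSG00000198804, chrM:5904-7445), the catalytic subunit, had 4645 Nanopore and 1729423 Illumina counts, 11519 CPM (11195 to 11853) against 9020 CPM. Its Nanopore/Illumina ratio of CPM was 1.28 (1.24 to 1.31). MT-CO3, a core subunit, had 4019 and 1254227 counts, a ratio of 1.52 (1.48 to 1.57). MT-CO2, which carries the site that receives electrons from cytochrome c, had 3543 and 1686041 counts, a ratio of 0.999 (0.967 to 1.03). The Illumina count per kilobase put them in another order, with 2464970 for MT-CO2, 1599780 for MT-CO3 and 1121550 for MT-CO1. The Nanopore counts of neighbours in the order MT-CO1, MT-CO3, MT-CO2 differed beyond counting error, by 1.16-fold (1.11 to 1.21) and 1.13-fold (1.08 to 1.19).

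The ATP synthase subunits MT-ATP6 and MT-ATP8 form part of the membrane sector of the enzyme. MT-ATP6, which lines the proton path, had 2884 Nanopore and 785895 Illumina counts, a CPM ratio of 1.74 (1.68 to 1.81). MT-ATP8, a gene of 207 bases, had 2299 and 317800 counts, a ratio of 3.44 (3.30 to 3.58), the highest of the 13 mRNA genes. The Nanopore count of MT-ATP8 was 79.7% (75.4 to 84.2%) of that of MT-ATP6, and its Illumina count 40.4%. Per kilobase the order by Illumina was the opposite, with 1535270 for MT-ATP8 and 1154030 for MT-ATP6. How reads in the 46 shared bases printed above were assigned is not known.

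Cytochrome b, the only complex III subunit made in mitochondria, is encoded by MT-CYB. It had 1835 Nanopore and 776925 Illumina counts, a CPM ratio of 1.12 (1.07 to 1.18).

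Complex I, NADH dehydrogenase, has 7 mitochondrial subunits, which together held 7095 Nanopore and 3456056 Illumina counts. Their shares of all counts were 1.76% and 1.80%. MT-ND4, a proton-pumping subunit, had 1631 and 1212037 counts, a CPM ratio of 0.640 (0.609 to 0.672). MT-ND4L, on the same RNA, had 809 and 159424, a ratio of 2.41 (2.25 to 2.59). The Nanopore count of MT-ND4L was 49.6% (45.5 to 54.0%) of that of MT-ND4, and its Illumina count 13.2%. In both shared RNAs the gene at the 5′ end had the lower count in each library.

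MT-ND1, at the membrane end of the electron path, had 1277 Nanopore and 433331 Illumina counts, a CPM ratio of 1.40 (1.33 to 1.48). MT-ND2 had 1065 and 467584, a ratio of 1.08 (1.02 to 1.15). MT-ND3, a gene of 346 bases, had 1051 and 267995, a ratio of 1.86 (1.75 to 1.98). The Nanopore counts of MT-ND2 and MT-ND3 did not differ beyond counting error, with a ratio of 1.01 (0.930 to 1.10).

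MT-ND5 (ENSG00000198786, chrM:12337-14148), the longest mRNA gene at 1812 bases, had 634 Nanopore and 658280 Illumina counts. Its CPM ratio was 0.458 (0.423 to 0.495), the lowest of the mRNA genes. MT-ND6 (ENSG00000198695, chrM:14149-14673), the only mRNA gene of the light strand, had 628 and 257405 counts, a ratio of 1.16 (1.07 to 1.25). MT-ND5 ends at the base before the one where MT-ND6, read on the other strand, ends, so their annotated 3′ ends meet. Their Nanopore counts did not differ beyond counting error, MT-ND6 being at 99.1% (88.6 to 110.8%) of MT-ND5, while by Illumina it stood at 39.1%. Whether the same reads were counted for both genes was not tested, since the tables hold no reads.

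Across the 13 mRNA genes, Spearman's rho between Nanopore counts and Illumina counts per kilobase was 0.808, a description over genes that share the same 2 libraries. MT-CO1 to MT-CO3, MT-ATP6 and MT-ATP8 held the first 5 places by both measures, in different order. MT-ND3 was 7th per kilobase by Illumina with 774552 and 10th by Nanopore. The CPM ratio was higher for shorter genes, with a rho of −0.786 between log2 ratio and length over the 13 genes.

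**Figure D3:**
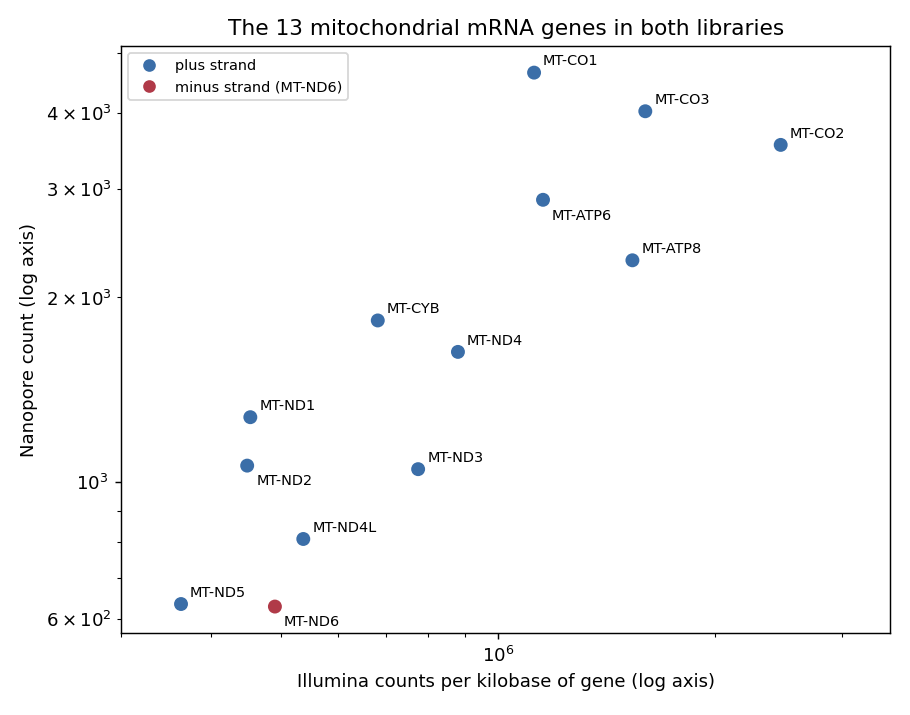
Nanopore counts of the 13 mRNA genes against their Illumina counts per kilobase, both on log axes, with plus-strand genes in blue and MT-ND6 in red. The 3 cytochrome c oxidase and 2 ATP synthase genes lie apart at the upper right, from 2299 Nanopore counts and 1121550 Illumina counts per kilobase upwards, and MT-ND5 and MT-ND6 lie lowest.

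The rRNAs of the mitochondrial ribosome are the 12S RNA (MT-RNR1) and the 16S RNA (MT-RNR2). MT-RNR2 (ENSG00000210082, chrM:1671-3229) had 2186 Nanopore and 731727 Illumina counts, a CPM ratio of 1.42 (1.36 to 1.48). MT-RNR1 (ENSG00000211459, chrM:648-1601) had 571 and 131035 counts, a ratio of 2.07 (1.91 to 2.25). In both libraries MT-RNR2 was the higher, and per kilobase by Illumina it stood at 469357 against 137353. The longest run of A on the RNA strand was 7 bases in MT-RNR2 and 6 in MT-RNR1, against 3 (MT-ND4L and MT-ND6) to 8 (MT-ND5) in the mRNA genes. Both libraries were made from polyadenylated RNA, so these counts do not give the level of the whole rRNA pool.

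The tRNA genes that the results turn on are printed here in full, each on its own strand, with the anticodon in capitals. MT-TS1, MT-TD and MT-TK had the highest Nanopore/Illumina ratios, MT-TC the highest Illumina count, and MT-TL2 the lowest Nanopore count.
MT-TS1, chrM:7446-7514, minus strand: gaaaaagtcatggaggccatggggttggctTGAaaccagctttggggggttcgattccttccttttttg
MT-TD, chrM:7518-7585, plus strand: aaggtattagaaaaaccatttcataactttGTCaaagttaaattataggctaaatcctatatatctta
MT-TK, chrM:8295-8364, plus strand: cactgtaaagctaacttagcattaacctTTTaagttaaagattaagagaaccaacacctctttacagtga
MT-TC, chrM:5761-5826, minus strand: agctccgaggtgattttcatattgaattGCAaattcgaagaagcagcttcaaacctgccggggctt
MT-TL2, chrM:12266-12336, plus strand: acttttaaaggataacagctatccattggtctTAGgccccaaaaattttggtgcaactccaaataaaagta

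The count of each tRNA gene was set against the mRNA or rRNA genes on either side, passing over other tRNA genes. By Nanopore the 22 tRNA genes stood at 0.674 to 83.1% of the larger of the flanking counts, with a median of 11.02%. By Illumina they stood at 0.0294 to 2.69%, with a median of 0.489%. MT-TS1 was the only tRNA gene at 50% or more by Nanopore, and 5 were at 25% or more. By Illumina none was at 25%. Counts of neighbours may include the same reads, and the intervals given for these percentages treat them as separate.

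MT-TS1 lies between MT-CO1 and MT-TD, on the opposite strand to both. It had 3860 Nanopore counts, 83.1% (79.6 to 86.7%) of MT-CO1 and 108.9% of MT-CO2, and 1523 Illumina counts, 0.0881% of MT-CO1. Its CPM was 1205 times higher by Nanopore (1135 to 1280). MT-TD, the tRNA-Asp gene, starts 3 bases further on and abuts the start of MT-CO2. It had 1456 and 509 counts, 1360 times higher by Nanopore (1229 to 1508). The Nanopore count of MT-TD was 31.3% of MT-CO1 and 41.1% (38.6 to 43.7%) of MT-CO2. MT-TK, the tRNA-Lys gene, lies 25 bases after MT-CO2 and 1 base before MT-ATP8. It had 824 and 502 counts, 781 times higher by Nanopore (698 to 874), and stood at 23.3% of MT-CO2 and 35.8% of MT-ATP8. These 3 genes lie beside MT-CO1 or MT-CO2, among the 3 mitochondrial mRNA genes highest by Nanopore, and MT-TD and MT-TK had the lowest Illumina counts of the 22. Such a place did not always go with a high ratio. MT-TG, which abuts MT-CO3, had a log2 ratio of 4.73, and MT-TY, 12 bases from MT-CO1, had 4.36. The median of the tRNA genes was 4.76.

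A further 8 plus-strand tRNA genes start directly after the end of a plus-strand mRNA or rRNA gene, at the borders printed above except that of MT-RNR1 and MT-TV. Their Nanopore counts were 93 (MT-TV) to 620 (MT-TL1), or 9.21 to 34.0% of the gene before them, with a median of 23.0%. By Illumina they stood at 0.159 to 0.721% of it. MT-TI, the tRNA-Ile gene after MT-ND1, had 434 Nanopore and 1344 Illumina counts, 34.0% (30.4 to 37.9%) and 0.310% of MT-ND1. MT-TL1, the tRNA-Leu(UUR) gene between MT-RNR2 and MT-ND1, had 620 and 3316 counts, 28.4% of MT-RNR2 and 48.6% of MT-ND1 by Nanopore. MT-TT, the tRNA-Thr gene after MT-CYB, had 514 and 1235 counts, 28.0% (25.4 to 30.9%) and 0.159% of MT-CYB.

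MT-TW, the tRNA-Trp gene after MT-ND2, had 273 and 2038 counts, 25.6% and 0.436% of MT-ND2. MT-TH, the tRNA-His gene after MT-ND4, had 331 and 8739, 20.3% and 0.721% of MT-ND4. MT-TR, the tRNA-Arg gene between MT-ND3 and MT-ND4L, had 179 and 1659, 17.0% and 0.619% of MT-ND3. This group thus ran higher than 9% of the preceding gene by Nanopore and lower than 1% by Illumina in all 8 cases. MT-TV, the tRNA-Val gene between the rRNAs, had 93 and 704 counts, 16.3% and 0.537% of MT-RNR1. MT-TG, the tRNA-Gly gene, had 370 and 6424, the lowest Nanopore share of its preceding gene (9.21% of MT-CO3). It stood at 35.2% of the gene that follows, MT-ND3.

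Where several tRNA genes follow an mRNA gene in chromosome order, the Nanopore counts fell with distance from its end in 4 runs. After MT-ND1 they were 434 for MT-TI (0 bases away), 87 for MT-TQ (66) and 33 for MT-TM (139). After MT-ND4 they were 331 for MT-TH (0), 39 for MT-TS2 (69) and 11 for MT-TL2 (128). After MT-CO1 they were 3860 for MT-TS1 (0) and 1456 for MT-TD (72), and after MT-CYB 514 for MT-TT (0) and 119 for MT-TP (68). The fifth run, after MT-ND2, went the other way, from 273 for MT-TW to 538 for MT-TY (314 bases away). MT-TQ, MT-TS1 and MT-TP are on the opposite strand to the mRNA gene before them. Of the 4 runs, only that after MT-ND4 lies on a single strand. The fall with distance was noticed in the data and is given as a description.

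The Illumina counts followed the Nanopore order after MT-CO1, where they fell from 1523 to 509, and not after MT-ND1, MT-ND4 or MT-CYB. After MT-ND4 they were 8739 for MT-TH, 13232 for MT-TS2 and 15003 for MT-TL2, highest where Nanopore was lowest. After MT-CYB they were 1235 for MT-TT and 10089 for MT-TP. After MT-ND1 they were 1344 for MT-TI, 1440 for MT-TQ and 963 for MT-TM. After MT-ND2 they rose from 2038 for MT-TW to 22346 for MT-TC and were 12252 for MT-TY. MT-TL2, the tRNA-Leu(CUN) gene that abuts the start of MT-ND5, was the only tRNA gene with the higher CPM by Illumina, 78.2 against 27.3 by Nanopore (15.2 to 48.9). MT-TS2, the tRNA-Ser(AGY) gene beside it, was at 96.7 CPM by Nanopore and 69.0 by Illumina, a ratio of 1.40 whose interval (0.996 to 1.92) spans 1. These were the 2 tRNA genes within 4-fold.

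Of the 5 plus-strand tRNA genes that lie at the start of an mRNA or rRNA gene but not at the end of one, 3 were low by Nanopore. MT-TM, the tRNA-Met gene before MT-ND2, had 33 counts, 3.10% (2.12 to 4.38%) of MT-ND2, and 963 by Illumina. MT-TF, the tRNA-Phe gene and the first of the heavy-strand order, had 48, 8.41% (6.13 to 11.3%) of MT-RNR1, and 3520 by Illumina. MT-TL2 had 11, 1.74% of MT-ND5. The others, MT-TD and MT-TK, were high, as given above.

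The 8 tRNA genes of the light strand had 87 to 3860 Nanopore counts and 1440 to 22346 Illumina counts. The 14 of the heavy strand had 11 to 1456 and 502 to 15003, so the 2 strands overlapped in both libraries. The medians were 489.5 against 302.0 by Nanopore and 9079.5 against 1848.5 by Illumina. All 8 light-strand tRNA genes were 4-fold higher by Nanopore, as were 12 of the 14 heavy-strand ones. Among all genes averaging at least 5 CPM the share was 12.9%. With Illumina counts divided by length, MT-TS1 (4.94) alone of the light-strand genes was still 4-fold higher by Nanopore. On that scale MT-TP (−2.82) was 4-fold higher by Illumina.

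A cluster of 4 of them lies between MT-TW and MT-CO1 with no mRNA gene among them. Their Nanopore counts were nearly equal: 486 for MT-TA (tRNA-Ala), 493 for MT-TN (tRNA-Asn), 531 for MT-TC (tRNA-Cys) and 538 for MT-TY (tRNA-Tyr). The intervals for the ratio of neighbours all included 1, from 98.6% (86.8 to 112.0%) for MT-TA over MT-TN to 92.8% (82.0 to 105.2%) for MT-TN over MT-TC. By Illumina the same genes ranged from 8070 for MT-TA to 22346 for MT-TC, with MT-TN at 12143 and MT-TY at 12252. MT-TC was the highest tRNA gene by Illumina. Its 338576 counts per kilobase came near those of MT-ND5 (363289), and the median of all 22 tRNA genes was 46895. The Nanopore counts of the cluster stood at 45.6 to 50.5% of MT-ND2, which lies before it on the opposite strand, and at 10.5 to 11.6% of MT-CO1, which follows.

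The other light-strand tRNA genes differed more. MT-TE, the tRNA-Glu gene, lies between MT-ND6 and MT-CYB, next to the start of MT-ND6 in the direction of its transcription. It had 380 Nanopore counts, 60.5% (53.1 to 68.8%) of MT-ND6, and 6374 Illumina counts, 2.48% of it. MT-TQ, the tRNA-Gln gene, shares 3 bases with MT-TI on the other strand. It had 87 and 1440 counts, 28.7 times higher in CPM by Nanopore (22.9 to 35.7). MT-TP, the tRNA-Pro gene and the last of the order, had 119 and 10089, 5.61 times higher by Nanopore (4.64 to 6.72). Across the 22 tRNA genes Spearman's rho between the counts of the 2 libraries was −0.189, against 0.808 for the mRNA genes without division by length. Both are descriptions over genes of the same 2 libraries.

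**Figure D4:**
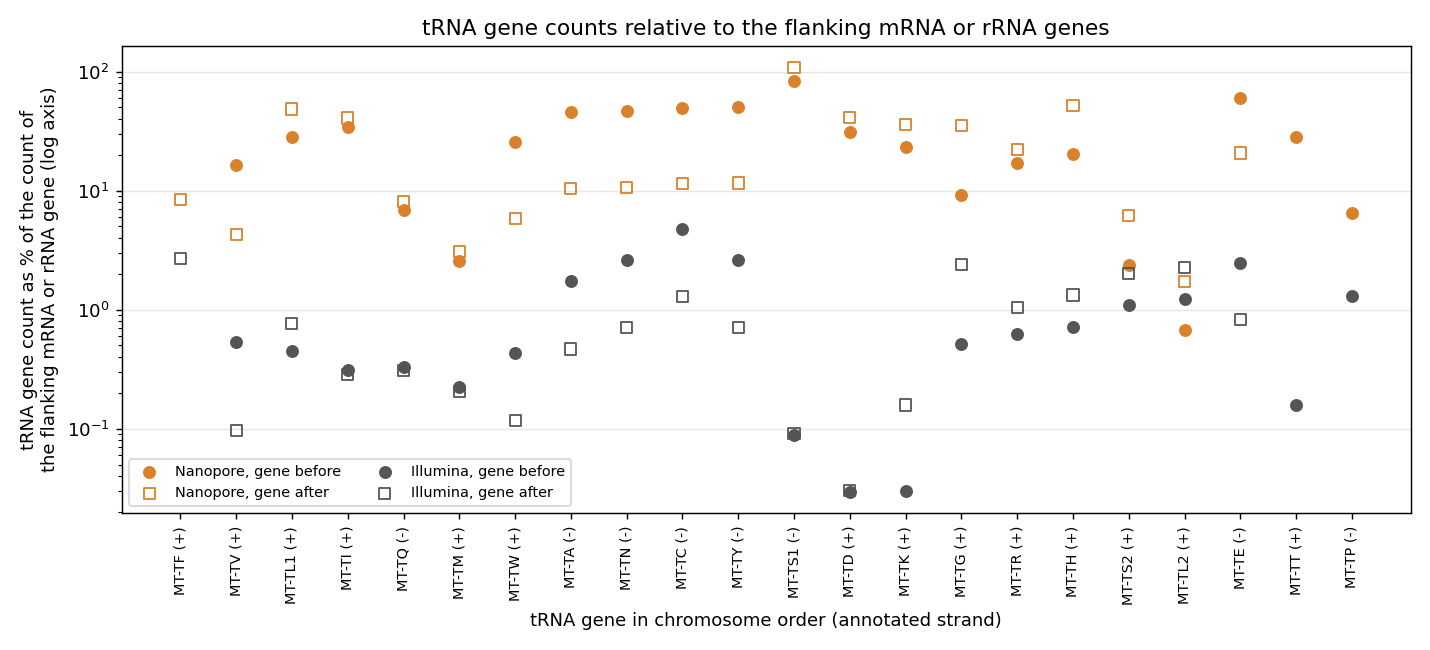
Count of each tRNA gene as a percent, on a log axis, of the count of the mRNA or rRNA gene before it (filled circles) and after it (open squares), Nanopore in orange and Illumina in grey. Before and after are by chromosome coordinate, whatever the strand of the tRNA gene. All Illumina points lie below 5%, most Nanopore points lie between 5% and 61%, MT-TS1 stands highest by Nanopore, and for MT-TL2 the Illumina points lie above the Nanopore points.

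Nuclear chromosomes carry copies of mitochondrial DNA, to which reads of the mitochondrial genes can align. GENCODE names 404 such pseudogenes that are in the tables, taken by symbols made of MT, the gene, P and a number. Copies named in another way were not included. Of the 404, 5 had a Nanopore count (67 in all) and 36 had an Illumina count (148696 in all). These totals equal 0.164% and 1.35% of the counts of all mitochondrial genes. All copies taken by this rule were of mRNA genes, so copies of rRNA and tRNA genes were not examined. A single copy, MTATP6P1 (ENSG00000248527, chr1:633696-634376, plus strand), held 92.2% of the Illumina counts of the copies. It had 137032 Illumina counts, 17.4% of MT-ATP6, and 6 Nanopore counts, 0.208% of MT-ATP6. Over its 681 bases it is 98.5% identical to the mitochondrial chromosome in hg38. Summing both genes, an alternative added after the values were seen, lowered the log2 ratio of MT-ATP6 from 0.80 to 0.57.

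Its neighbours in the same stretch of chromosome 1 did not show this. MTCO1P12 (98.6% identity) had 43 Nanopore and 5672 Illumina counts, 0.926% and 0.328% of MT-CO1. MTND2P28 (98.4% identity) had 11 and 3048, 1.03% and 0.652% of MT-ND2. MTCO2P12 had 6 and 880 counts, and MTND1P23 1 and 40. On chromosome 5, MTND4P12 (95.8% identity) had 0 Nanopore and 957 Illumina counts. How reads that fit several places were assigned is not given, so counts of these copies and of their parent genes are uncertain at this level.

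The nuclear genes that make, process and degrade mitochondrial RNA were taken from a list of 48 genes. All 48 were in the tables, and 46 reached an average of 5 CPM. Of these, 1 was 4-fold higher by Nanopore and 1 by Illumina, against 12.9% and 8.14% of all tested genes, and the median log2 ratio was −0.39 against −0.42. The mitochondrial RNA polymerase POLRMT had 11 Nanopore and 6679 Illumina counts (log2 ratio −0.34), and the transcription and packaging factor TFAM had 28 and 14448 (−0.12). For the enzymes that cut tRNAs out of the precursors, PRORP, the nuclease of mitochondrial RNase P, had 17 and 12475 (−0.61). ELAC2, which cuts at the 3′ end, had 18 and 20189 (−1.22, with an interval of −1.99 to −0.58).

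LRPPRC and SLIRP form a complex that stabilises mitochondrial mRNAs, and their ratios had opposite signs on the CPM scale, on which length is not divided out. LRPPRC had 29 and 30819 counts (−1.15, interval −1.74 to −0.64) and SLIRP had 171 and 27682 (1.55, interval 1.33 to 1.77). The poly(A) polymerase MTPAP had 12 and 4758 (0.25). Among the 46 genes that reached 5 CPM, the highest ratio was that of PTCD1 (148 and 6930 counts, 3.31), whose body overlaps the readthrough gene ATP5MF-PTCD1, so its count is uncertain. After PTCD1 and SLIRP the highest were TWNK, the mitochondrial DNA helicase (23 and 7938, 0.45), and TACO1, a translational activator of MT-CO1 (19 and 7165, 0.33). The lowest of the 46 were PDE12, which removes poly(A) from mitochondrial RNA (2 and 5470 counts, −2.31), MTERF2 (1 and 2028, −1.73), the RNA-degrading enzyme PNPT1 (7 and 11152, −1.69) and LACTB2 (2 and 2921, −1.45). The genes below that minimum, MRM1 (1585 Illumina counts) and NSUN3 (1486), had no Nanopore count. With so few Nanopore counts, differences of the 4 lowest genes were little resolved: the interval for PDE12 was −5.57 to −0.67 and that for MTERF2 −7.40 to 0.39.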

How the data were processed

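Each library's table, as deposited by the authors, holds the raw count of every gene as a whole number. The submitters' processing notes name minimap2 2.11-r797, HISAT2 2.1.0, featureCounts and the build hg38. Strand and overlap settings, the annotation release, and whether Nanopore reads were corrected before counting are not given in the sources used here. A tRNA gene's count may therefore include reads of its neighbours, which was not tested.

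CPM is counts divided by the library total, times 1000000. Ratios use a pseudocount of 1 CPM. Wilson intervals for shares and exact conditional binomial intervals for ratios were computed with statsmodels 0.14.6 and scipy 1.17.1, and the latter were tested on simulated data. Intervals beside a pathway gene's log2 ratio are for CPM without pseudocount. Alternatives include TMM scaling (edgeR 4.0.16), median-ratio scaling and division of Illumina counts by union exonic length. They were computed over the whole tables, and the closing section gives their effect. Positions, lengths, overlaps and sequences come from GENCODE 44 and hg38, the build of the files, and identities of nuclear copies from blastn 2.17.0. Anticodons were found from the genetic code, as a triplet after T and before a purine. No p-value was computed.

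The 37 members are named by rule. Of the nuclear copies, the 5 with the most counts in each library, and of the pathway genes averaging at least 5 CPM the 4 highest and 4 lowest ratios and 7 genes by role, are named. Members and lists were chosen with earlier results of these data known.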

Additional observations from a re-analysis of the deposited data

How the results depend on the processing

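Directions and counts of members past 4-fold were recomputed under other scalings, pseudocounts and thresholds. The log2 ratio of shares became 0.41 for mRNA, 0.69 for rRNA and 5.47 for tRNA genes under TMM, 0.45, 0.73 and 5.51 under median-ratio scaling, and −1.44, −0.33 and 0.060 with Illumina counts divided by length. Without tRNA genes in the totals it was 0.36 for mRNA genes, and without MT-TS1 it was 4.82 for tRNA genes. At 2-fold, 23 members were higher by Nanopore and 2 by Illumina, and the share of all genes was not computed at that threshold. The 20 members 4-fold higher by Nanopore became 4, and the 0 higher by Illumina became 6, on division by length. The shares of all genes averaging at least 5 CPM were 12.9% and 8.14% in the main setting. They were 15.2% and 4.27% on division by length. Under that division 11 tRNA genes past 4-fold changed direction: MT-TF −2.55, MT-TQ −0.39, MT-TM −1.28, MT-TA −0.45, MT-TN −0.94, MT-TC −1.86, MT-TY −0.97, MT-TG −0.54, MT-TH −1.12, MT-TE −0.47 and MT-TP −2.82. MT-CO2, at −0.0011, changed sign under TMM (0.087), median-ratio scaling (0.13) and totals without tRNA genes (0.040). The 1 tRNA gene at 50% of its larger neighbour by Nanopore became 5 at 25%. It became 3 or 2 against only the gene before or after it by coordinate. Spearman's rho over the mRNA genes was 0.70 without the overlapping pairs and 0.825 without MT-ND6. The pathway median was −0.41 with a pseudocount of 0.1 CPM, 0.39 on division by length and −0.40 with no minimum. Its 1 gene higher by Nanopore became 3 on division by length, and its 1 gene higher by Illumina became 2, 0 and 3 under these settings. No paired analysis was possible because there is 1 library per platform and no test. Depth limits the tRNA genes with few Nanopore counts, such as MT-TL2 with 11.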
